A study of Mus musculus with 9 samples.

Results

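The 10 genes described here encode glutathione S-transferases, enzymes that join the tripeptide glutathione to reactive, electrophilic molecules so that these can be carried out of the cell. They were chosen by gene symbol from the deposited expression table (10 of its 24411 genes), and the family was selected on Gsta3, which was among the genes with the largest falls in YS lines against BM lines. That contrast is therefore described for the members and not tested, and Gsta3 is not tested in any comparison. The data are bulk RNA-seq of self-renewing C57BL/6 mouse macrophages, 1 library per line. Yolk sac at E9.5 was the source of the 3 YS lines and fetal liver at E14.5 that of the 3 FL lines, while adult bone marrow gave the 3 BM lines, and all 3 groups were kept in 100 ng/mL M-CSF, the growth factor that macrophages depend on, with no other treatment. Each line was grown in its own culture vessel without cloning, and the source cells were pooled from several mice, so lines of a group may share animals and p-values measure the spread between cultures.

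Soluble glutathione S-transferases fall into classes with different substrates, among them alpha (Gsta3, Gsta4), mu (Gstm1, Gstm5), pi (Gstp1), theta (Gstt1, Gstt2) and omega (Gsto1). The microsomal enzymes Mgst1 and Mgst3 belong to a separate family of membrane proteins, and Mgst3 also reduces lipid hydroperoxides with glutathione. In liver, several of these genes are induced by the transcription factor NRF2, which binds the antioxidant response element.

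Values are TPM, each transcript's share of all transcripts in its library on a fixed scale, which are corrected for transcript length, so that levels of different genes can be set side by side. Differences and their standard errors (SE) are on the log2(TPM + 1) scale, which understates the change of genes at low TPM. The test, limma, was run on the 11753 genes that reached 1 TPM in 3 or more of the 9 libraries, and a gene was called at an adjusted p under 0.1 with a change of more than 2-fold. In these bulk cultures, fewer cells that express a gene and less RNA per cell cannot be told apart.

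All 10 macrophage markers examined were above 0 in every line, with a summed level of 7452 to 13791 TPM in YS lines, 15838 to 34157 TPM in FL lines and 20486 to 20801 TPM in BM lines. Of these 10, 2 were called in FL against BM lines (Mertk and Fcgr1 higher), 2 in YS against FL lines (Lyz2 and Mertk lower) and 3 in YS against BM lines (Fcgr1 higher, Lyz2 and Ctss lower). Over all tested genes, 10.3%, 3.79% and 12.8% were called in these comparisons. Among the 6 endothelial markers, 3 were tested. Kdr and Cdh5 were called higher in FL than in BM lines, and in YS against BM lines Kdr was higher and Vwf lower. Both Kdr and Cdh5 passed the filter only with the FL libraries, where they are high, so these calls are given as a description. Cdh5 was at 1.26 to 1.38 TPM in FL lines, close to the filter limit of 1 TPM. Kdr was at 17.37 to 50.36 TPM in FL lines, at 0.29, 16.08 and 54.35 TPM among the YS lines and no higher than 0.86 TPM in BM lines. The endothelial list summed to 8.07 to 67.0 TPM in YS lines, 22.1 to 94.0 TPM in FL lines and 39.3 to 44.9 TPM in BM lines, with Emcn at 0 throughout. Among 8 granulocyte and mast cell markers, S100a8 was highest in FL lines (10.49 to 25.11 TPM) and lowest in YS lines (2.19 TPM or less), while Elane, S100a9 and Mcpt8 were at 0 throughout. The list summed to 0.39 to 3.46 TPM in YS lines, 10.8 to 25.1 TPM in FL lines and 3.59 to 5.00 TPM in BM lines. The part of these markers in the results was not tested. The hepatocyte markers Fgb and Serpina1a were at 0 in all lines and Alb reached at most 0.21 TPM. Of the 8 hepatocyte markers, Trf and Afp held most of the summed level and were above 0 in all lines (5.57 to 16.7 TPM for the list in BM lines, 70.2 to 128.7 TPM in the others). Trf was at 92.57 to 119.18 TPM in FL lines, 59.67 to 125.22 TPM in YS lines and 0.13 to 6.52 TPM in BM lines. Among the 3 tested, Trf was called higher in FL (5.56, adjusted p = 0.0011) and YS lines (5.19, adjusted p = 0.0018) than in BM lines. Apoa2 was lower in FL than in BM lines (-1.21, adjusted p = 0.048) and higher in YS than in FL lines (1.42, adjusted p = 0.061). Their part in the results was not tested. BM2 stood apart through erythroid RNA, with 332.7 TPM over 8 erythroid markers against 0.46 to 16.1 TPM in the other libraries. Most of it was Hba-a1 (214.99 TPM) and Hba-a2 (102.17 TPM). Epor, on the same list, was at 0, 0.62 and 0 TPM among the BM lines. It was called higher in FL lines (1.88, adjusted p = 0.052) and in YS lines (1.54, adjusted p = 0.077), which overlapped the BM lines. Epor passed the filter only with the FL libraries, where it is high, so its calls are given as a description. BM2 was also nearer to YS2 (Pearson's r of 0.934 across genes) than BM1 (0.893) or BM3 (0.886) were. YS1 was the YS line least like its group (0.942 with YS2 and 0.912 with YS3, which reached 0.960 with each other).

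Gsta3, an alpha-class enzyme known in mice for detoxifying the epoxide of aflatoxin B1, was read at 253.43, 210.46 and 284.44 TPM in BM1, BM2 and BM3. In the FL lines it was at 1.37, 15.99 and 6.03 TPM, and in the YS lines at 0.11, 0.68 and 0 TPM. The 3 groups did not overlap, with every BM line above every FL line and every FL line above every YS line. The mean of the FL lines was 32.0-fold below that of the BM lines. As a description of the selected gene, the difference of mean log2(TPM + 1) was -7.66 (SE 0.60) for YS against BM, -5.24 for FL against BM and -2.42 for YS against FL. Leaving out any 1 line kept these differences between -7.88 and -7.51, between -5.93 and -4.51 and between -3.15 and -1.73. Among FL lines, FL2 stood 11.7-fold above FL1.

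**Figure D1:**
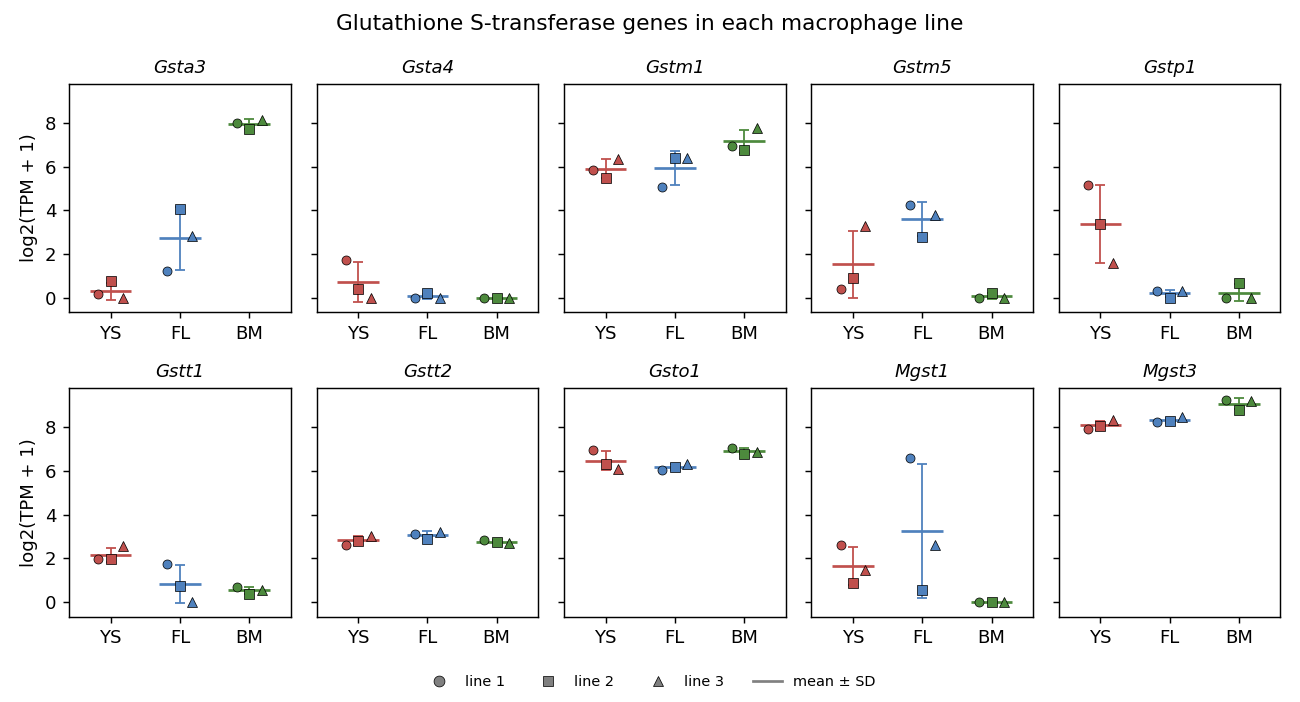
Each panel plots log2(TPM + 1) of 1 gene in the 9 lines (YS, FL and BM on the x axis, symbols for lines 1 to 3), with the group mean and SD as line and bars. Gsta3 stands at 210.46 TPM or more in BM lines and under 1 TPM in YS lines, Gstm5 is lowest in BM lines, Gstp1 stands out in YS lines, and Mgst1 reaches 94.87 TPM in FL1 alone.

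The promoter of Gsta3 is shown because the core of the antioxidant response element, TGACNNNGC, was found in it. The windows are from RefSeq on GRCm38.p6 and run from 250 bases before to 50 bases after the start of the gene, written 5′ to 3′ along its strand, with the core in capitals. Windows were held for 8 of the 10 members, and Gsta4 and Gstt2 had none. The core, searched on both strands, lay in 3 of these 8, those of Gsta3, Gstm5 and Mgst1, and in 12.4% of all 32851 windows and 17.4% of the tested genes with a window. It was found for 1 of 17 other glutathione S-transferase genes with a window (5.88%) and for 4 of 14 NRF2 target genes (28.6%). A second window of Mgst1 does not hold it. In Gsta3 (chr1:21240335-21240634, + strand) it starts 121 bases before the start site. In Gstm5 (chr3:107895604-107895903, + strand) it starts 42 bases before it, and in Mgst1 (chr6:138140277-138140576, + strand) it lies on the opposite strand, 56 bases before it.
Gsta3: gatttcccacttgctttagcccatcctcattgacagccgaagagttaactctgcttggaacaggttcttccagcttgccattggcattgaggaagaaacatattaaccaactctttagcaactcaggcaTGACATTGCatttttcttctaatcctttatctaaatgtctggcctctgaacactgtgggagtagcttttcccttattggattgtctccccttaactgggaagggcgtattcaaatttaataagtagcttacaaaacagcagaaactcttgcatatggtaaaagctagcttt
Gstm5: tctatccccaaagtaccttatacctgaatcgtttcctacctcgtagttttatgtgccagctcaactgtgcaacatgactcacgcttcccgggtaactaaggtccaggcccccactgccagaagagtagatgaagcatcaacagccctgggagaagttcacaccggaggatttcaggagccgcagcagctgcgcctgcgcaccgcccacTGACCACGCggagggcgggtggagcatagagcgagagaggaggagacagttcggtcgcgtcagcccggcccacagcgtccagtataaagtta
Mgst1: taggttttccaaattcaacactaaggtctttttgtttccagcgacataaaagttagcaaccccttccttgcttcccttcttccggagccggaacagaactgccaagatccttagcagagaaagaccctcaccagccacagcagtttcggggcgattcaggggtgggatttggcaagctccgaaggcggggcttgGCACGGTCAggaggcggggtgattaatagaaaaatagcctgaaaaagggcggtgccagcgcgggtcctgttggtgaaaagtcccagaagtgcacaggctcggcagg
The 3 genes with this core did not share a pattern, since Gsta3 was highest in BM lines while Gstm5 and Mgst1 were at or near 0 there. The core overlapped no AP-1 site (TGACTCA on either strand) in these windows. The letters were not found in the windows of Gstm1, Gstp1, Gstt1, Gsto1 and Mgst3, nor in that of the NRF2 target Nqo1, which says only that they are absent from these 300 bases.

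Gsta4, the other alpha-class member, which is known for conjugating the lipid peroxidation product 4-hydroxynonenal, was close to 0. It was listed at 2.36, 0.33 and 0 TPM in YS1, YS2 and YS3, at 0.15 TPM in FL2 and at 0 in the other 5 lines, and it did not pass the filter.

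Mgst3 was the most abundant member in every line. It was at 615.80, 446.88 and 579.42 TPM among the BM lines, 299.01, 311.14 and 350.41 TPM among the FL lines and 238.41, 264.04 and 317.18 TPM among the YS lines. Every BM line lay above every FL and YS line, while FL and YS lines overlapped. FL lines were lower than BM lines, with a difference of -0.76 (SE 0.16, adjusted p = 0.011 in limma), which is under 2-fold. The median difference over all genes tested was 0.09 in this comparison, so Mgst3 fell against that shift too. YS and FL lines differed by -0.23 (SE 0.16, adjusted p = 0.36).

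The 10 genes summed to 1131, 881.6 and 1205 TPM in BM1, BM2 and BM3, to 520.5, 495.1 and 543.8 TPM in FL lines and to 467.5, 408.5 and 490.7 TPM in YS lines. BM lines were thus above all other lines in summed level, and every FL line was above every YS line, with FL2 and YS3 the nearest. Mgst3 made up 51.1% ± 3.19 of the sum in BM lines (SD, n = 3), 61.6% ± 3.66 in FL lines and 60.1% ± 7.88 in YS lines. Gsta3, the gene selected on its high level in BM lines, made up 23.3% ± 0.781 of it in BM lines, 1.53% ± 1.53 in FL lines and 0.0633% ± 0.0901 in YS lines.

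**Figure D2:**
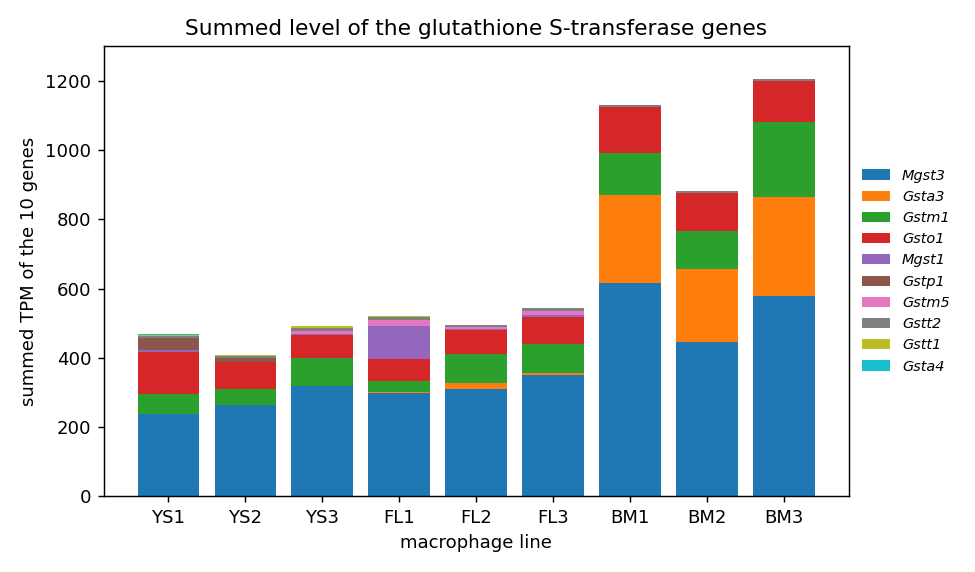
Stacked bars give the summed TPM of the 10 genes in each of the 9 lines (y axis from 0), with 1 colour per gene. BM lines reach 881.6 to 1205 TPM and the other lines 408.5 to 543.8 TPM, and Mgst3 is the largest block in every bar.

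Ranked by mean TPM, the order after Mgst3 differed between groups. In BM lines it was followed by Gsta3 (249.4 ± 37.2, SD, n = 3), Gstm1 (149.8 ± 59.2) and Gsto1 (119.4 ± 11.0), neighbours in this order whose ranges overlapped, and then by a step down to Gstt2 (5.77 ± 0.33). In FL lines Gsto1 (71.4 ± 7.21) and Gstm1 (66.1 ± 29.0) came next and overlapped. In YS lines Gsto1 (89.6 ± 28.6) and Gstm1 (60.6 ± 18.9) overlapped as well, followed by Gstp1 (15.5 ± 17.4), whose range overlapped those of the next genes and whose mean rests on YS1.

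Gsto1, the omega-class enzyme, which carries a cysteine in its active site and removes glutathione from proteins, was abundant in every line. It was at 131.24, 109.55 and 117.43 TPM among the BM lines, 64.30, 71.23 and 78.72 TPM among the FL lines and 122.03, 79.11 and 67.76 TPM among the YS lines. FL lines were all below BM lines, with a difference of -0.73 (SE 0.20, adjusted p = 0.036), under 2-fold. The adjusted p ranged from 0.0039 to 0.13 when 1 line was left out. YS lines overlapped both groups and differed from FL lines by 0.28 (SE 0.20, adjusted p = 0.40). Gsto1 lies on chromosome 19, where 404 tested genes had a median difference of -0.79 for FL against BM, and 55.7% of them were at or below Gsto1. The difference of Gsto1 was thus close to the middle of its chromosome, and the part of that shift in it was not tested.

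Both mu-class members were called between FL and BM lines, in opposite directions. Gstm1, a major mu-class enzyme, was at 123.81, 108.00 and 217.48 TPM among the BM lines and 32.55, 83.28 and 82.39 TPM among the FL lines, which lay below all BM lines. It was lower in FL lines, with a difference of -1.22 (SE 0.41, adjusted p = 0.071), a 2.27-fold difference of the mean TPM. The call was lost without FL1 (-0.78, adjusted p = 0.17), BM1 (-1.32, adjusted p = 0.14) or BM3 (-0.92, adjusted p = 0.23), and it held without BM2. In the fit with no filter Gstm1 was not called (adjusted p = 0.11). In YS lines it was at 55.96, 44.42 and 81.39 TPM, within the range of FL lines (difference -0.05, SE 0.41, adjusted p = 0.95). Of the distinct stretches of 75 bases in its transcripts, the length of the reads, 11.7% also occur in other genes, most of them in the pseudogene Gstm2-ps1, so part of its level depends on how shared reads were assigned.

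Gstm5 showed the reverse order. It was listed at 0, 0.16 and 0 TPM among the BM lines and 18.22, 5.84 and 12.73 TPM among the FL lines, with no overlap. The difference was 3.53 (SE 0.69, adjusted p = 0.0091), and the gene was called under each of the 18 alternative settings, with adjusted p between 0.0013 and 0.039. Gstm5 would not have passed the filter without the FL libraries, where it is high, and in the fit with no filter its adjusted p was 0.018. YS lines spread between these groups, with 0.33, 0.88 and 8.64 TPM, YS3 lying within the range of FL lines. YS against FL lines gave -2.08 (SE 0.69), which did not pass the threshold (adjusted p = 0.11). Without YS3 it was -2.94 and was called (adjusted p = 0.020). None of the 75-base stretches of Gstm5 occurs in another gene.

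The mu-class genes lie side by side on chromosome 3 in the order Gstm5, Gstm7, Gstm6, Gstm3, Gstm2, Gstm1, Gstm4, with no other protein-coding gene between them. Gstm7, Gstm6 and Gstm3 were listed at 0 in all 9 lines. Gstm2, which is not among the 10 members, was at 11.76, 36.58 and 78.66 TPM among the FL lines, 0.45, 2.10 and 0.75 TPM among the BM lines and 0.86, 2.12 and 0.88 TPM among the YS lines. It rose in FL lines against BM lines by 4.08 (adjusted p = 0.0030) and was lower in YS lines than in FL lines (-3.92, adjusted p = 0.019), and both calls held whichever line was left out. Gstm2 too needed the FL libraries to pass the filter, and with no filter it was called in both comparisons (adjusted p = 0.0071 and 0.033). Gstm4 was at 5.00 to 18.57 TPM in all lines and was not called in either of these comparisons. Its FL lines (10.17, 18.57 and 10.12 TPM) all lay above its BM lines (7.29, 5.00 and 7.22 TPM). The difference was 0.86 (SE 0.30, adjusted p = 0.076), under 2-fold. YS against FL lines gave -0.37 (adjusted p = 0.46). Along this cluster, Gstm5 and Gstm2 were therefore highest in FL lines and lowest or near their lowest in BM lines, while Gstm1, between Gstm2 and Gstm4, was highest in BM lines. Gstm4 was present in every line and, like Gstm5 and Gstm2, was higher in every FL line than in every BM line, though under 2-fold.

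**Figure D3:**
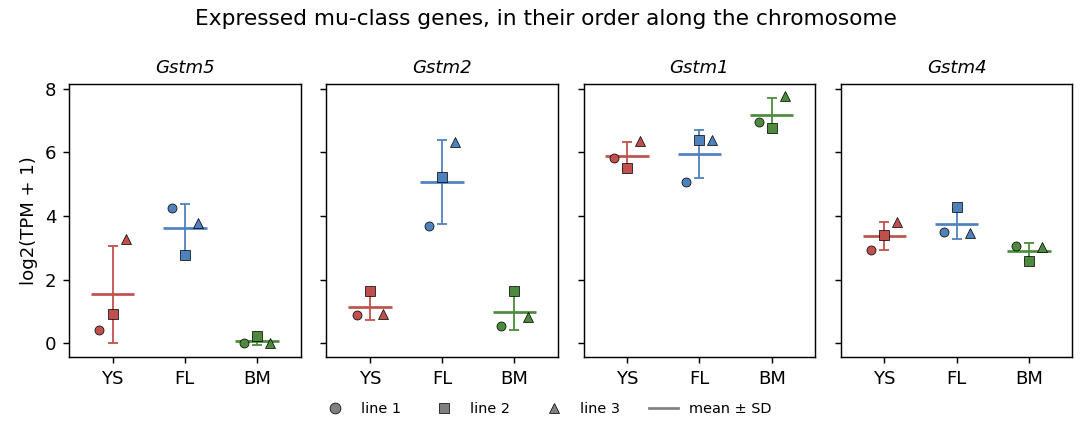
The 4 mu-class genes above 0 are plotted as log2(TPM + 1) in each line, in their order along the chromosome from left to right, with mean and SD per group. FL lines are the highest for Gstm2 (11.76 to 78.66 TPM), while BM lines are the highest for Gstm1 (108.00 to 217.48 TPM).

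Gstp1, the pi-class enzyme, was found in YS lines, where it was at 35.14, 9.23 and 2.05 TPM in YS1, YS2 and YS3. It was at 0.24, 0 and 0.22 TPM among the FL lines and 0, 0.61 and 0 TPM among the BM lines. All YS lines lay above all others, with a 17.1-fold range among themselves, YS1 being the highest. YS lines were higher than FL lines by 3.18 (SE 0.74, adjusted p = 0.051). Gstp1 passed the filter through the YS libraries alone, so it could enter the test only by being high there. In the fit with no filter it was called as well (adjusted p = 0.078). The call was lost without FL2 (3.08, adjusted p = 0.14) or FL3 (3.22, adjusted p = 0.14), and without YS1 the difference was 2.28 and was called. Gstp1 shares 29.2% of its 75-base stretches with its neighbour Gstp2, which was listed at 0 in every line, so reads of both could not be told apart over that part. The tested genes of chromosome 19, where Gstp1 lies, had a median difference of 0.22 in this comparison.

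The theta-class genes Gstt1 and Gstt2, whose enzymes act on small halogenated molecules and sulfate esters, were low in all groups. Gstt1 was at 2.89, 2.91 and 4.82 TPM among the YS lines, 2.31, 0.67 and 0 TPM among the FL lines and 0.60, 0.28 and 0.45 TPM among the BM lines. Every YS line was above every other line, while FL and BM lines overlapped. The difference of YS against FL lines was 1.33 (SE 0.41, adjusted p = 0.093). Gstt1 would not have passed the filter without the YS libraries, where it is high, and in the fit with no filter it was not called (adjusted p = 0.12). This call held in 1 of the 9 fits with a line left out (without FL1), and the adjusted p reached 0.12 without YS1 or YS2, 0.16 without YS3, 0.22 without FL2, 0.23 without FL3, 0.15 without BM1 or BM3 and 0.14 without BM2. Gstt2 was the steadiest member, at 5.16, 6.02 and 7.04 TPM among the YS lines, 7.60, 6.36 and 8.22 TPM among the FL lines and 6.14, 5.68 and 5.50 TPM among the BM lines. Its differences were 0.30 (SE 0.16, adjusted p = 0.23) for FL against BM and -0.25 (SE 0.16, adjusted p = 0.36) for YS against FL, which did not pass the threshold. Gstt3, from the same cluster on chromosome 10, was more abundant than both, at 22.35 to 32.41 TPM over the 9 lines.

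Mgst1, a microsomal enzyme abundant in liver, was listed at 0 in all 3 BM lines. In FL lines it was at 94.87, 0.44 and 5.11 TPM, and in YS lines at 5.13, 0.85 and 1.78 TPM. FL1 held nearly all of the FL signal, and its level made up 18.2% of the summed level of the 10 genes in that line. No fold is given against a group at 0. FL against BM did not pass the threshold (adjusted p = 0.11), and it was called without FL2 (adjusted p = 0.026). YS and FL lines differed by -1.58 (SE 1.27, adjusted p = 0.46), a value that became 0.09 without FL1.

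Counted over the 8 members other than Gsta3 that passed the filter, 2 of 8 were called in FL against BM lines (Gstm5 higher, Gstm1 lower), where 10.3% of all tested genes were called (6.01% higher and 4.30% lower). The groups did not overlap for 6 of 8 members (Gstm5, Gstt2 and Mgst1 higher, Gstm1, Gsto1 and Mgst3 lower), against 49.5% of all tested genes. In YS against FL lines, 2 of 8 were called (Gstp1 and Gstt1, both higher), against 3.79% of all genes (1.95% higher and 1.85% lower), and the groups did not overlap for the same 2 members, against 26.1% of all genes. These comparisons share their BM or their YS lines with the contrast the family was selected on. Without BM2, 2 members were called in FL against BM lines and 1 in YS against FL lines, and without YS1 these counts were 2 and 1. As a description of YS against BM lines, 3 of 8 were past the same limits (Gstp1 and Gstt1 higher, Gstm1 lower), where 12.8% of all genes were (7.57% higher and 5.22% lower), and 6 of 8 did not overlap, against 49.0%. The count of 3 uses the adjusted p of the contrast the family was selected on, so it is not a test of the members. Gstp1 and Gstt1 could enter that count only through the YS libraries, where they are high. No conclusion is drawn from either count in YS against BM lines. Of the 4 members called in FL against BM or YS against FL lines, 3 (Gstm5, Gstp1 and Gstt1) could pass the filter only with the group in which they are high, and Mgst1 only with both FL and YS lines, so these counts are given as a description.

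**Figure D4:**
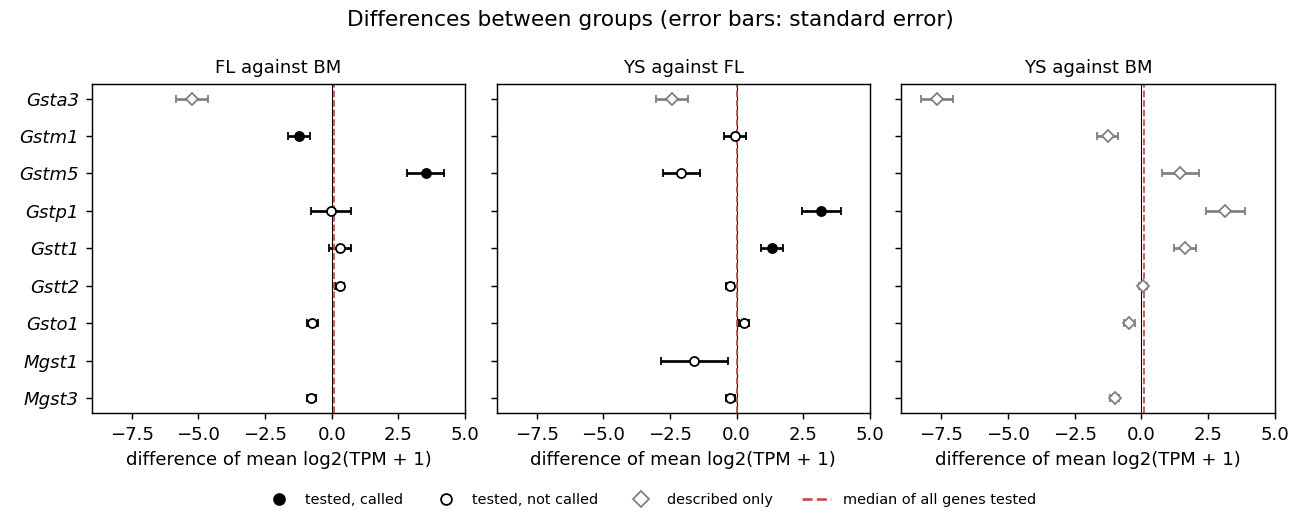
The differences of mean log2(TPM + 1) are plotted with their SE for the members that passed the filter, 1 panel per comparison. Filled circles are called, open circles are tested and not called, grey diamonds are described only, the dashed line is the median of all genes tested, and Mgst1 is left out where BM lines are at 0. Gstm5 (3.53) lies to the right and Gstm1 (-1.22) to the left in FL against BM lines, and Gstp1 (3.18) and Gstt1 (1.33) lie to the right in YS against FL lines.

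Of 18 further glutathione S-transferase genes, 16 had a row in the table and 9 passed the filter, with a median difference of 0.09 for FL against BM, -0.11 for YS against FL and -0.02 for YS against BM. Of these 9, 2 were called in FL against BM lines (Gstm2 higher, Mgst2 lower), 2 in YS against FL lines (Mgst2 higher, Gstm2 lower) and 1 in YS against BM lines (Mgst2 lower). Over all tested genes, 10.3%, 3.79% and 12.8% were called in these comparisons. Gsta1, Gsta2, Gstm3, Gstm6, Gstm7 and Gstp2 were at 0 in all lines. Mgst2, a microsomal enzyme that can make the cysteinyl leukotriene LTC4, was at 229.50, 233.08 and 306.83 TPM among the BM lines, 1.23, 17.01 and 5.75 TPM among the FL lines and 111.19, 30.59 and 16.37 TPM among the YS lines. It fell by 5.30 in FL against BM lines (adjusted p = 0.0033) and fell by 2.69 in YS against BM lines (adjusted p = 0.039, or 0.12 without BM3). FL and YS lines overlapped for this gene, though it was called between them (2.61, adjusted p = 0.094). That call held in 2 of 9 fits with a line left out (without YS3 or FL2), with adjusted p of at most 0.20 in the others, and was lost with no filter (0.14). Hpgds, the sigma-class enzyme that makes prostaglandin D2, ran the other way, with 99.84 to 105.41 TPM in BM lines, 160.24 to 195.32 TPM in FL lines and 159.50 to 238.77 TPM in YS lines. Its difference was 0.74 for FL against BM (adjusted p = 0.012) and 0.96 for YS against BM (adjusted p = 0.0044), both under 2-fold, and the latter was over 2-fold at 1.13 without YS2.

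The related membrane proteins of leukotriene and prostaglandin synthesis (3 genes) had 1 called gene, Ptges, whose enzyme makes prostaglandin E2. Ptges was at 5.95 to 8.12 TPM in BM lines and at 0.51 to 1.77 TPM in the other lines, and it was lower than in BM lines in FL lines (-2.12, adjusted p = 0.0021) and in YS lines (-1.86, adjusted p = 0.0039). The list had a median of -0.34 and -0.29 in these comparisons, and of 0.21 in YS against FL lines, where none was called. The shares of all tested genes called were 10.3% in FL against BM lines, 12.8% in YS against BM lines and 3.79% in YS against FL lines.

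Genes that make glutathione or bring in its amino acids were measured next (9 genes, 8 tested). In YS against FL lines 4 of 8 were called, where 3.79% of all tested genes were, with a list median of -0.22 against 0.02 for all genes. Gclm, the regulatory subunit of the enzyme that limits glutathione synthesis, was lower, at 51.33, 186.91 and 71.40 TPM in YS lines against 250.93, 508.99 and 275.55 TPM in FL lines (-1.88, adjusted p = 0.053). The call of Gclm was lost without FL2 or FL3, where the adjusted p was at most 0.15. The cystine carrier gene Slc7a11 (1.54, adjusted p = 0.072), the cystathionine gamma-lyase gene Cth, which passed the filter only with the YS libraries (1.28, adjusted p = 0.083) and the glutamine carrier gene Slc1a5 (1.05, adjusted p = 0.041) were higher in YS lines. Of the 9 fits with a line left out, the call of Slc7a11 held in 1 (without YS3), that of Cth in 2 (without YS3 or BM1) and that of Slc1a5 in 6 (lost without YS1, FL2 or FL3), with adjusted p of at most 0.17, 0.21 and 0.12. With no filter, Slc7a11 and Cth were not called (adjusted p = 0.11 and 0.1), while Gclm and Slc1a5 were (adjusted p = 0.082 and 0.059). In FL against BM lines 2 of 8 were called (10.3% of all genes), both lower (Slc1a5, -1.04, adjusted p = 0.012, and Cth, -1.02, adjusted p = 0.094), with a list median of -0.05. Slc1a5 was under 2-fold without FL2 (-0.86) or BM3 (-0.97), and the call of Cth held in 3 of 9 such fits (without YS1, YS3 or BM1; adjusted p at most 0.27). Cth was not called in FL against BM lines with no filter (adjusted p = 0.12). In YS against BM lines, where 12.8% of all genes were called, 2 of 8 were (Slc7a11 higher by 1.12, adjusted p = 0.082, and Gclm lower by -1.35, adjusted p = 0.053), with a list median of 0.10. These calls held in 3 of 9 (without YS3, FL1 or FL3; adjusted p at most 0.19) and in 4 of 9 such fits (without YS2 or any FL line; adjusted p at most 0.15). With no filter, Slc7a11 was not called in YS against BM lines (adjusted p = 0.13) and Gclm was (adjusted p = 0.086).

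Genes that use or recycle glutathione came next. Over all tested genes, 10.3% were called in FL against BM lines, 3.79% in YS against FL lines and 12.8% in YS against BM lines. Of 10 tested genes of glutathione breakdown and recycling, Ggct (1.29, adjusted p = 0.013), which cleaves gamma-glutamyl amino acids, and Oplah (1.15, adjusted p = 0.025, with a change of 0.88 and so under 2-fold without FL2) were higher in FL than in BM lines. Dpep2, a dipeptidase, was lower in YS than in BM lines (-1.36, adjusted p = 0.011). The list medians were 0.00 for FL against BM, -0.26 for YS against FL, where none was called, and -0.06 for YS against BM. Of 10 tested genes of glutathione reduction, peroxidases and glyoxalases, Hagh (-1.17, adjusted p = 0.0023) and Esd (-1.02, adjusted p = 0.049), which both release glutathione from thioesters, were lower in FL than in BM lines. Both were lower in YS lines too (Hagh -1.10, adjusted p = 0.0033, and Esd -1.90, adjusted p = 0.0045), where Glrx5 was higher (1.04, adjusted p = 0.017). The call of Esd in FL against BM lines held in 5 of 9 fits with a line left out (lost without FL1 or any BM line, with adjusted p of at most 0.15), and that of Glrx5 in 7 of 9, lost without YS1 (0.80) and BM1 (0.97). Hagh was under 2-fold in YS against BM lines without YS3 (-0.99). The list medians were -0.37, -0.03 and -0.51 for FL against BM, YS against FL (none called) and YS against BM. Among 12 thioredoxin and peroxiredoxin genes, Srxn1, sulfiredoxin, was the single call (-1.39 for YS against BM, adjusted p = 0.0032), with list medians of 0.02, -0.18 and -0.20.

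Transporters that carry glutathione conjugates out of the cell (7 genes, all tested) had list medians of -0.84 for FL against BM, -0.19 for YS against FL and -0.72 for YS against BM. Abcc3 was at 87.99, 72.91 and 83.02 TPM among the BM lines and 0.08, 0.12 and 0.14 TPM among the YS lines, and was lower in YS lines (-6.20, adjusted p = 0.019). In FL lines it was at 0.26, 172.28 and 86.76 TPM, with FL1 near the YS lines, FL3 within the range of the BM lines and FL2 above it, and it was not called there (adjusted p = 0.50). Abcc2, at 1.95 to 2.89 TPM in BM lines and 0.29 TPM or less elsewhere, was lower in FL (-1.47, adjusted p = 0.0035) and in YS lines (-1.51, adjusted p = 0.0035). Abcc2 and Abcc3 passed the filter only with the BM libraries, where they are high. With no filter the calls were made as well, with an adjusted p of 0.0010 for Abcc2 in both comparisons and of 0.035 for Abcc3 in YS against BM lines. None of the 7 was called in YS against FL lines. Of all tested genes, 3.79% were called there, 10.3% in FL against BM lines and 12.8% in YS against BM lines.

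NRF2 target genes outside these lists (16 genes, 15 tested) had 4 calls in FL against BM lines (1 higher, 3 lower), 1 in YS against FL lines and 5 in YS against BM lines (1 higher, 4 lower), with list medians of -0.31, -0.31 and -0.60. Over all tested genes, 10.3%, 3.79% and 12.8% were called in these comparisons. Nqo1, a quinone reductase, was at 34.46, 26.46 and 38.46 TPM among the BM lines, 0.11, 14.64 and 0.30 TPM among the FL lines and 0.38, 0.10 and 0 TPM among the YS lines. It was lower in FL lines (-3.58, adjusted p = 0.021) and in YS lines (-4.88, adjusted p = 0.0062), and both calls held whichever line was left out. Nqo1 passed the filter only with the BM libraries, and with no filter it was called in both comparisons (adjusted p = 0.041 and 0.012). FL2 was the FL line with the highest level of Nqo1, Abcc3 and Gsta3. Ephx1, the microsomal epoxide hydrolase, was at 268.00, 142.68 and 202.68 TPM among the BM lines, 19.37, 29.64 and 0.65 TPM among the FL lines and 45.98, 26.10 and 1.95 TPM among the YS lines. It was lower in FL lines (-4.30, adjusted p = 0.042, or at most 0.13 without BM1 or BM3) and in YS lines (-3.68, adjusted p = 0.056, or at most 0.15 without YS3, BM1, BM2 or BM3). Fth1, ferritin heavy chain, was lower in FL (-1.55, adjusted p = 0.0039) and YS lines (-1.13, adjusted p = 0.013, with -0.92 and so under 2-fold without YS1), and with no filter neither was called (adjusted p = 0.13 and 0.21). Fth1 and Abcc2 lie on chromosome 19, like Gsto1. Me1, malic enzyme, was lower in YS lines (-2.33, adjusted p = 0.042, or at most 0.12 without BM1 or BM3). Cbr3, a carbonyl reductase, was higher in FL (2.07, adjusted p = 0.011) and YS lines (1.52, adjusted p = 0.030, or at most 0.11 without BM1 or BM3) than in BM lines. Hmox1, heme oxygenase 1, was lower in YS than in FL lines (-1.48, adjusted p = 0.070), a call that held in 2 of 9 fits with a line left out (without YS2 or FL1). With no filter Hmox1 was not called (adjusted p = 0.11). NRF2 itself and its regulators (8 genes) had no call in FL against BM or YS against FL lines and 1 in YS against BM lines, where Keap1, the NRF2 inhibitor, was higher (1.17, adjusted p = 0.038, with 0.74 and so under 2-fold without YS3, and an adjusted p of at most 0.11 without BM1 or BM3). The list medians were 0.35, -0.04 and 0.23.

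**Figure D5:**
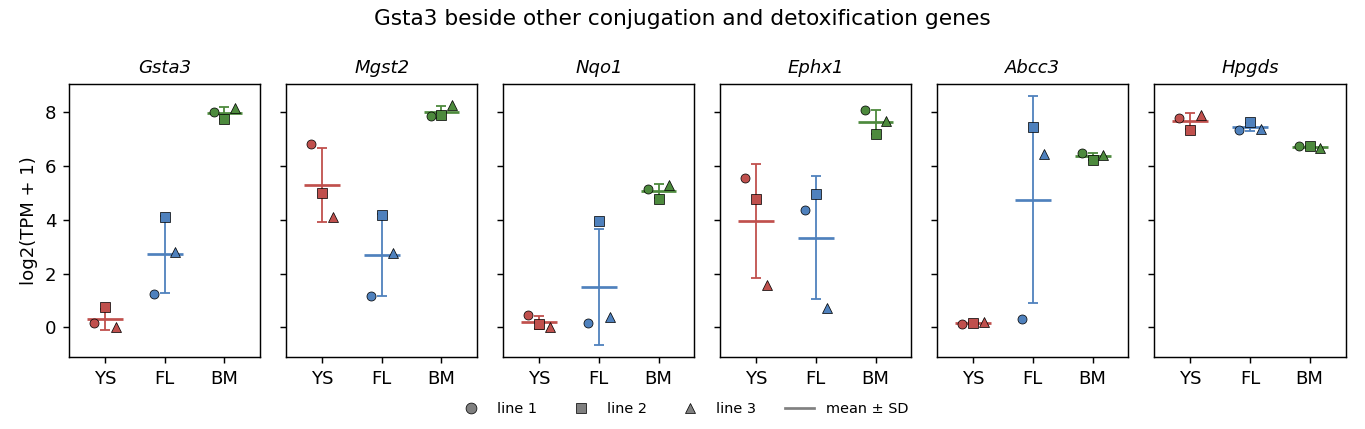
Gsta3 and 5 other conjugation, detoxification and export genes are plotted as log2(TPM + 1) by line, with mean and SD per group. Nqo1 and Abcc3 are at or under 0.38 TPM in YS lines, Mgst2 and Ephx1 are highest in BM lines, and Hpgds is lowest in BM lines (99.84 to 105.41 TPM).

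The genes whose log2(TPM + 1) followed that of Gsta3 most closely over the 9 libraries were Ermard (Pearson's r = 0.987), Atp6v1g1 (0.984), Bloc1s2 (0.982), Fam160b1 (0.980), Slc19a2 (0.978), Phlda3 (0.976), Lyzl4 (0.975) and Wbscr27 (0.975). These values describe the libraries, which fall into 3 groups that Gsta3 separates. Ermard was at 66.16 to 93.25 TPM in BM lines, 15.62 to 26.36 TPM in FL lines and 11.57 to 13.13 TPM in YS lines. Phlda3 was at 89.99 to 106.56 TPM in BM lines and at 0 in all YS lines, and in FL lines it was at 0.23, 16.92 and 0.43 TPM, FL2 being the highest as for Gsta3. Among the members, r with Gsta3 was 0.920 for Mgst3, 0.807 for Gstm1 and 0.617 for Gsto1, and it was below 0 for Gstm5, Gstp1, Gstt1, Gstt2 and Mgst1. Outside the members, r was read for the further glutathione S-transferase genes, the conjugate transporters and the NRF2 target genes. Taldo1 (0.955) and Nqo1 (0.953) were nearest among these.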

How the data were processed

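RNA-seq libraries of 3 YS, 3 FL and 3 BM lines were prepared by the authors with poly(A) selection and a strand-specific kit and read as single reads of 75 nt. The deposited values are TPM for 24411 gene symbols. The submitters' processing notes name Trim Galore 0.6.6, STAR 2.7.9a and RSEM 1.3.3, while the genome build and annotation are not given in the sources used here. TPM holds no depth, so the spread among 3 lines is the only measure of precision, and a value of 0 is reported as listed. The raw counts behind the study's own DESeq2 analysis were not used here.

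Lines were grouped by the sample labels. Values were transformed to log2(TPM + 1), genes below 1 TPM in more than 6 of the 9 libraries were left out, and all 9 libraries were fitted in one limma 3.58.1 model (R 4.3.3) with an intensity trend and Benjamini-Hochberg adjustment within each comparison. The fit was tested on simulated data. Alternatives changed the pseudocount, filter, scaling, trend, libraries and block. The members, lists and tests were chosen with earlier results of these data known. The text names all members, called genes without overlap between groups (at most 4 per list and comparison), some genes at 0 throughout, and the 8 genes most like Gsta3. Other genes (Hpgds, Gstm4, Gstt3, Taldo1, Alb, Afp, Hba-a1, Hba-a2, and Mgst2, Fth1, Kdr and Epor where outside this rule) were named after their values were seen. Promoters were read from RefSeq (GRCm38.p6), gene order from the RefSeq gene table of that build, and shared 75-base stretches from GENCODE M21 transcripts. Protein sequences were not used here.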

Additional observations from a re-analysis of the deposited data

How the results depend on the processing

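Across 18 alternative settings, Gstm5 stayed called in FL against BM lines, and 436 of 480 member values kept their direction and side of the limits or moved by less than the spread between lines. The members called in FL against BM lines (2) were 3 with a pseudocount of 0.1 (Mgst1 added, adjusted p of 0.032), 1 with no filter, and 1 to 3 with 1 line left out, and those in YS against FL lines (2) were 1 with a pseudocount of 0.1 or 4, with no filter and with quantile normalization, 0 with a filter of 5 TPM (which Gstp1 and Gstt1 do not pass) or with only the 6 libraries compared, and 0 to 2 with 1 line left out. Genes called over the whole table were 1211 in FL against BM lines (902 to 1309 with a line left out), 1504 in YS against BM lines (1138 to 1598) and 446 in YS against FL lines (191 to 588), the last falling to 280 with a pseudocount of 4 and to 81 with only the 6 libraries compared, and the cause was not tested. Signs changed where differences were near 0 or rested on 1 line: Gstp1 in FL against BM lines (0.21 with a pseudocount of 0.1, -0.14 to 0.20 with a line left out), Gstt1 in FL against BM lines (-0.15 without FL1 to 0.71), Gstm1 in YS against FL lines (-0.49 to 0.18, above 0 without YS2, FL2 or FL3), Mgst1 in YS against FL lines (-2.94 to 0.09, above 0 without FL1), and Gstt2 in YS against BM lines (0.06; -0.06 with quantile normalization, -0.04 with median-of-ratios scaling and -0.04 without YS3). The pseudocount set the size of low genes, with Gsta3 in YS against BM lines at -9.93 with 0.1 and -5.89 with 4. The median of all genes tested, 0.11 in YS against BM lines, was 0 under median-of-ratios scaling. Of the other named genes' values, 740 of 857 kept direction and side of the limits, and the others kept only the direction.

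The lines share the numbers 1 to 3 across groups, but the deviations of same-numbered lines correlated by only -0.118 to 0.088, so the numbers were not taken as pairs. With the replicate number as a block, 1 member was called in YS against FL lines (Gstt1 missed at an adjusted p of 0.12) and 3 in FL against BM lines (Mgst1 added, 0.078).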
